A study of Mus musculus with 9 samples.

Results

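The comparison described here is that of kidneys from hindlimb-unloaded mice given 4-phenylbutyric acid (4-PBA) with kidneys from hindlimb-unloaded mice given vehicle, 3 libraries against 3 of the 9 in the study. Its members are the genes with at least 1 FPKM (fragments scaled for gene length and for the size of the library) in at least 3 of those 6 libraries. They numbered 11858 of the 54532 genes in the deposited table. All mice were male c57BL/6j aged 4 months. Both groups were hindlimb unloaded, that is, suspended so that the hind limbs bore no weight, and the treated group received 4-PBA at 100 mg per kg daily, injected into the peritoneum. What the vehicle was, and how long unloading lasted, is not stated in these sources. The 3 ground controls, which were not unloaded, entered only the shared estimate of spread. The labels describe 3 replicates a group without saying whether any were pooled, so the p-values below measure only the spread between these libraries. Library values are listed in the order 1, 2 and 3 of the labels.

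4-PBA is a short aromatic fatty acid that acts as a chemical chaperone, easing the folding load of the endoplasmic reticulum, and that also inhibits histone deacetylases. When unfolded proteins build up in that compartment, sensors in its membrane raise chaperones such as Hspa5 and degradation factors such as Herpud1, and the integrated stress response raises Atf4, Ddit3 and their targets. Most kidney RNA comes from the proximal tubule, whose cells reclaim phosphate, amino acids and sugar from the filtrate, secrete organic ions and drugs, and live on fatty acid oxidation. The design text names endoplasmic reticulum stress in the unloaded kidney, and its relief by 4-PBA, as the question.

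The libraries of the treated group were not alike. The mitochondrial genome took 68.7%, 79.3% and 63.7% of the reads in the vehicle libraries, and 15.2%, 13.7% and 67.1% in the treated libraries. Treated libraries 1 and 2 lay far below every vehicle library and treated library 3 within the vehicle range (70.6% ± 7.98 against 32.0% ± 30.4, SD, n = 3 each; exact two-sided permutation p = 0.2; 3 against 3 cannot go below 0.1, so this test could not pass 0.05). Reads outside the mitochondrial genome numbered 1568888 to 3037972 in the vehicle libraries, 12390406 and 12824889 in treated libraries 1 and 2, and 2887586 in treated library 3. Pseudogenes took 3.73% to 7.54% of those reads with vehicle, 0.955% and 1.18% in treated libraries 1 and 2, and 4.83% in treated library 3. Kidney markers were present in each of the 6 libraries for the proximal tubule (Slc34a1), thick limb (Umod) and principal cell (Aqp2). Treated library 3 also had 463 FPKM summed over 8 adipocyte markers, against 10.9 to 20.9 FPKM in the other 5, and 305 FPKM summed over 15 lymphocyte markers, against 9.99 to 23.8 FPKM. Vehicle library 1 had 173 FPKM summed over 13 hepatocyte markers, against 46.6 and 25.2 FPKM in vehicle libraries 2 and 3. The treated libraries had 102, 127 and 46.4 FPKM over the same markers, but the members differed in direction. Of the 10 measured, 5 were higher and 5 lower with 4-PBA. Below the filter, Ahsg and Fgb had 9.38 and 15.6 FPKM in vehicle library 1. In the treated libraries Ahsg had 0 FPKM and Fgb at most 0.0526 FPKM. Apoc3 had 0, 1.27 and 0 FPKM with vehicle and 10.7, 12.9 and 3.64 FPKM with 4-PBA. The part of these differences in the results below was not tested.

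**Figure D1:**
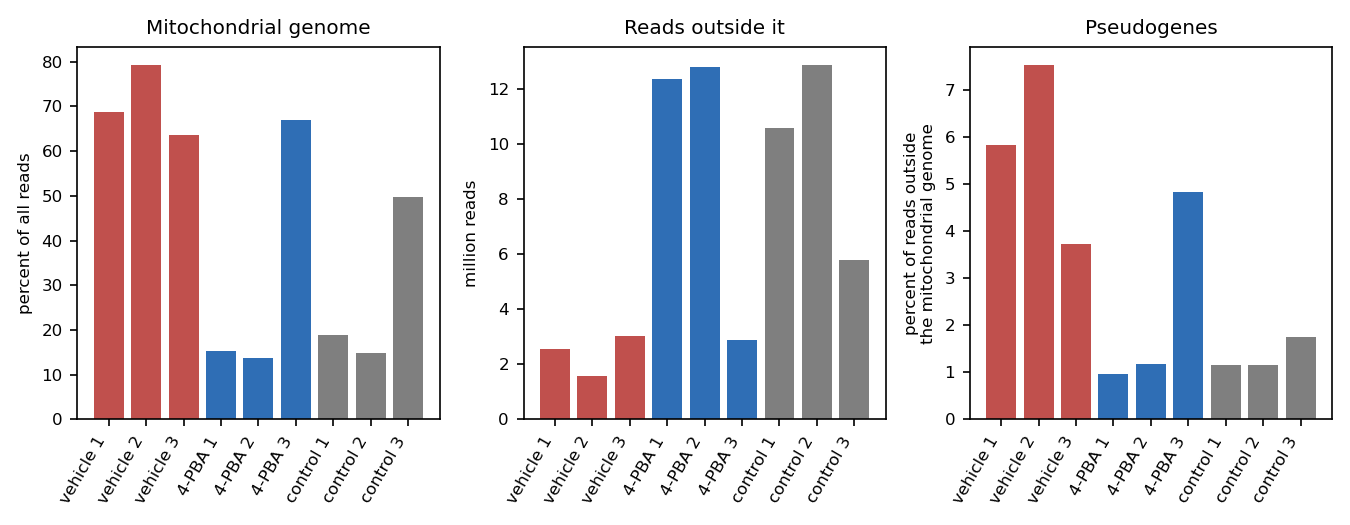
Share of reads from the mitochondrial genome (percent of all reads), number of reads outside it and share of the latter from pseudogenes (percent), one bar for each of the 9 libraries (red, vehicle; blue, 4-PBA; grey, ground control). Treated library 3, with 67.1% mitochondrial reads, stands with the vehicle libraries in all 3 panels.

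Of the 11858 genes, 385 passed the limma threshold (adjusted p under 0.05), which is 3.25% of those tested. With 4-PBA 166 were higher (1.4%) and 219 were lower (1.85%), and the median log2 difference of all genes was 0.01. Differences are 4-PBA minus vehicle on the log2(FPKM + 1) scale throughout, which understates the change of low genes. All 385 had groups that did not overlap, as had 20.8% of the genes tested. At an unadjusted limma p under 0.05 there were 2466 of the 11858 genes. The list counts at that level below are to be read beside this share. Of the higher genes 152 encoded protein, as did 10442 of the 11858 tested, and the 4-PBA mean had a median of 12.5 FPKM over all 166. Of the lower genes 87 encoded protein and 132 belonged to other classes, which numbered 1416 of those tested. Of the 132, 55 were processed pseudogenes (622 tested) and 20 long intergenic RNAs. The vehicle mean of the 219 lower genes had a median of 4.77 FPKM, and 64 of them were listed at 0 in every treated library.

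The number of calls moved with single libraries. Without treated library 3 limma called 1343 genes, 663 higher and 680 lower of the 11858, and list counts in that setting are to be read beside these. Without treated library 1 it called 81 and without treated library 2 it called 47. Without vehicle libraries 1, 2 and 3 it called 228, 352 and 285, and without ground controls 1, 2 and 3 it called 123, 137 and 154. A term for the mitochondrial share of each library left 115 genes, of which 62 were also in the 385, and with the 6 unloaded libraries alone 18 passed. Of 63 called genes named here, most by rule and some outside it, 62 passed without treated library 3. Without treated library 1, 16 of them passed, and without treated library 2, 7 did. Scaling to total reads moved the median of all genes to 0.73 and gave 687 higher and 148 lower genes.

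**Figure D2:**
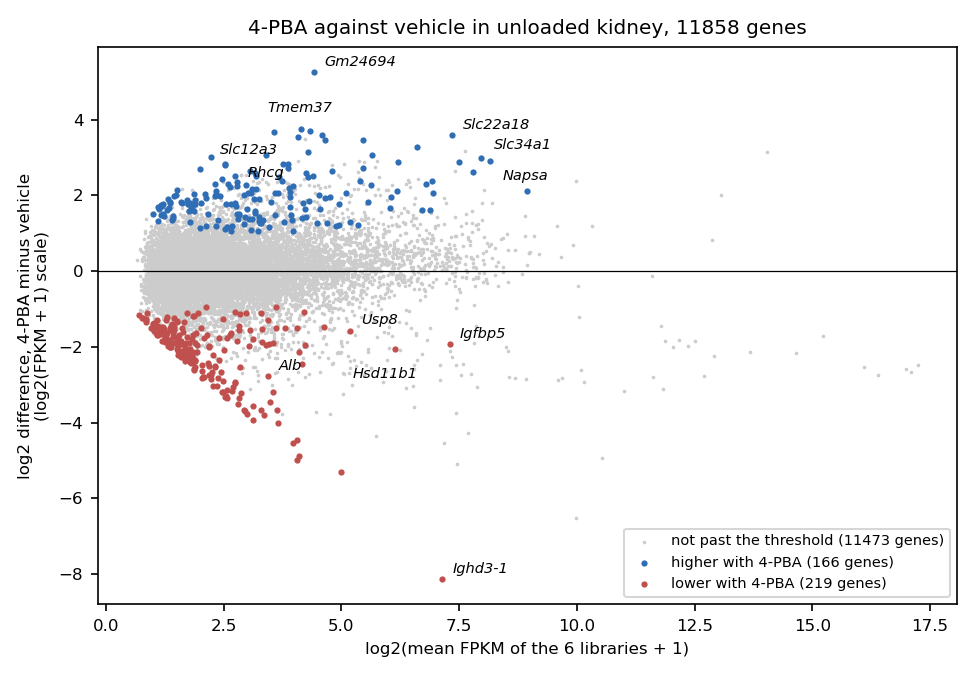
Log2 difference, 4-PBA minus vehicle, against the log2 of the mean FPKM + 1 over the 6 unloaded libraries, one point per gene. The 166 higher genes (blue) reach higher levels than the 219 lower genes (red), most of which lie near the low end of the axis.

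Among protein-coding genes with a mean of at least 10 FPKM in the higher group, the 15 largest rises ran from Tmem37 at 3.76 to Rpl10-ps3 at 2.83, and the 15 largest falls began with Alb. Slc51a (ENSMUSG00000035699; mm10 chromosome 16, 32474504 to 32487879), a subunit of the basolateral bile acid and steroid carrier, had 0, 2.11 and 3.46 FPKM with vehicle and 13.5, 31.7 and 44.5 FPKM with 4-PBA. All 3 treated libraries exceeded all 3 vehicle libraries, by 3.53 ± 0.58 (SE) on the log2 scale with a limma adjusted p of 0.0163. Cyp2j13 (ENSMUSG00000028571; mm10 chromosome 4, 96027534 to 96077546), of the cytochrome P450 family that oxidises arachidonic acid, had 0, 0.959 and 2.07 FPKM against 22.9, 26.9 and 4.45 FPKM, a log2 difference of 3.08. Among the largest falls, Alb (ENSMUSG00000029368; mm10 chromosome 5, 90460897 to 90476602), serum albumin, had 42.6, 9.60 and 4.34 FPKM with vehicle and 0.906, 1.21 and 0.822 FPKM with 4-PBA, a log2 difference of -2.78. Vehicle library 1, the highest for Alb, was also the highest in the summed hepatocyte markers, a sum that includes Alb itself. Without that library the log2 difference of Alb was -1.93 (limma adjusted p = 0.0268). Its call was lost without vehicle library 2 (limma adjusted p = 0.0669), treated library 1 (0.122), treated library 2 (0.147) or ground controls 1, 2 and 3 (0.0835, 0.0817 and 0.0791). It was also lost with the replicate block (limma adjusted p = 0.0555), the 6 unloaded libraries only (0.155) and other settings, the log2 difference staying between -3.59 and -1.81.

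Starts of genes among the largest rises and falls are given as the 250 bases before the RefSeq start (GRCm38.p6), because they are where a shared sequence feature would be looked for. They are the 2 rises and 2 falls ranked first whose window overlapped no annotated exon. Of these 4, only the start of Slc51a matched the first bases of a GENCODE transcript of the same gene. None of the 4 windows holds either motif described next, so none has letters in capitals.
Slc51a, chr16:32487880-32488129, minus strand: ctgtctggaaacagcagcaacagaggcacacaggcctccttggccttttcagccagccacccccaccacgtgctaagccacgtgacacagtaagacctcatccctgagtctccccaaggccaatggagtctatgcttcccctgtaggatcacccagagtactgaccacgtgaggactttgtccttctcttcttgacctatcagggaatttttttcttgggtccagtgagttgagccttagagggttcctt
Cyp2j13, chr4:96077548-96077797, minus strand: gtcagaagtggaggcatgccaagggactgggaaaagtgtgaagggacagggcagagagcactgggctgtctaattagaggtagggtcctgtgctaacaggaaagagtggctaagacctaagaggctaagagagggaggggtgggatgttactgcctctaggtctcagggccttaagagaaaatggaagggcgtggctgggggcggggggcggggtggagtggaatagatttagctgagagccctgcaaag
Alb, chr5:90460620-90460869, plus strand: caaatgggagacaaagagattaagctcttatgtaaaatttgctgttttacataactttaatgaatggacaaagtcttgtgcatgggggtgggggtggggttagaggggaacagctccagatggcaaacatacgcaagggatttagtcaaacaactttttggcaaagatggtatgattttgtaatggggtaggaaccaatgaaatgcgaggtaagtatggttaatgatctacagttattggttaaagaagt
Myadm, chr7:3288788-3289037, plus strand: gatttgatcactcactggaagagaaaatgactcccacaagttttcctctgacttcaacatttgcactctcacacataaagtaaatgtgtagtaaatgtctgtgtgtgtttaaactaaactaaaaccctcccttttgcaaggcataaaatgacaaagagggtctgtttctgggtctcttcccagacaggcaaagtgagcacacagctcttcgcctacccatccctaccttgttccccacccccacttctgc

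The promoters of 8472 of the 11858 genes (71.4%) were found in RefSeq, and 2 motifs were searched on both strands of the 300 bases from 250 before to 50 after the start. In 45.2% of the 8472 promoters the RefSeq start matched the first bases of a GENCODE transcript of the same gene. Neither motif contains the other. The HNF4 motif CAAAGTCCA was found in 0.413% of all promoters, in 2 of 130 promoters of higher genes, those of Nat8 and Rsrp1, and in 0 of 80 of lower genes. The unfolded protein response element TGACGTGG was found in 0.767% of all promoters, in 1 of the 130 (Gcat) and in 2 of the 80 (Fbxo9 and Timp1). Neither of these shares was tested, and a window without a match says only that these letters are not in it.

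Carriers of organic ions and drugs were the group with the most higher members. Of 17 listed genes 16 were measured above the filter, 5 rose and 0 fell, with a median log2 difference of 2.22. Slc22a2 (ENSMUSG00000040966; mm10 chromosome 17, 12584132 to 12628488), the organic cation carrier OCT2 of the basolateral membrane, had 2.50, 7.51 and 4.87 FPKM with vehicle and 109.6, 114 and 17.9 FPKM with 4-PBA (log2 difference 3.47 ± 0.64, SE; limma adjusted p = 0.0260). Slc22a18 (ENSMUSG00000000154; mm10 chromosome 7, 143473736 to 143499334), an imprinted gene for an organic cation carrier, had 6.21, 66.8 and 22.6 FPKM and 276, 436 and 166 FPKM, a log2 difference of 3.59. In Slc22a2 the treated group was split, with library 3 far nearer to vehicle than libraries 1 and 2, and in both genes library 3 was above each vehicle library. Slc47a1, the apical extruder MATE1 that passes cations from the cell to the urine, had 5.54, 23.1 and 10.3 FPKM and 84.7, 91.2 and 30.1 FPKM (log2 difference 2.37). Abcg2, an apical pump for urate and drugs, had 4.35, 3.74 and 3.40 FPKM and 27.4, 34.6 and 9.74 FPKM (log2 difference 2.20). The basolateral anion carriers Slc22a6 (OAT1) and Slc22a8 (OAT3), which take many acidic drugs into the cell, did not pass. Slc22a6 had 7.49, 13.9 and 5.38 FPKM with vehicle and 105, 97.8 and 12.0 FPKM with 4-PBA, and Slc22a8 had 3.27, 13.9 and 6.02 FPKM and 60.2, 47.9 and 14.5 FPKM (limma adjusted p = 0.0954 and 0.0632). Without treated library 3, 12 of the 16 rose, without treated library 1 it was 1, and without treated library 2 or with the mitochondrial share as a covariate 0 did.

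Markers of the convoluted proximal tubule, the first stretch after the glomerulus, numbered 22, of which 4 rose and 0 fell (median 1.35). Slc34a1 (ENSMUSG00000021490; mm10 chromosome 13, 55398187 to 55415592), the sodium phosphate cotransporter that reclaims most filtered phosphate, had 29.7, 100.4 and 31.4 FPKM with vehicle and 565, 619 and 146 FPKM with 4-PBA. Its log2 difference was 3.00 ± 0.62 (SE; limma adjusted p = 0.0377), and treated library 3, the lowest of its group, was above vehicle library 2, the highest of its own. The other 3 were Slc7a9, which reclaims cystine, with a log2 difference of 1.47, the sodium proton exchanger Slc9a3 with 1.51, and the sulfate carrier Slc13a1 with 2.16. In Slc7a9 the treated libraries had 14.4, 26.2 and 23.2 FPKM against 7.57, 8.16 and 5.07 FPKM with vehicle, so library 3 did not stand apart from libraries 1 and 2 there. Summed over the 22 genes, vehicle libraries had 221, 381 and 308 FPKM, and treated libraries had 1398, 1381 and 378 FPKM. The sum of treated library 3 was thus within the range of the vehicle libraries. Fewer cells of a type and less RNA per cell cannot be told apart in these whole-tissue libraries.

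Of 15 markers of the straight proximal tubule 4 rose and 0 fell (median 1.98). Napsa (ENSMUSG00000002204; mm10 chromosome 7, 44572380 to 44586862), the aspartic protease napsin A, had 48.4, 103 and 50.7 FPKM with vehicle and 531, 649 and 319 FPKM with 4-PBA, a difference of 2.90 ± 0.40 (SE) on the log2 scale with a limma adjusted p of 0.00903. The amino acid carrier Slc7a13 had 18.5, 53.0 and 39.8 FPKM and 180.2, 330.3 and 100.1 FPKM, and the organic anion carriers Slc22a30 and Slc22a13 had log2 differences of 2.49 and 2.38. The most abundant member, the androgen-regulated transcript Kap, had 2932, 2862 and 2241 FPKM and 29165, 55526 and 7971 FPKM, and did not pass (limma adjusted p = 0.0507). Of 10 androgen-regulated kidney transcripts measured, 1 rose, or 7 without treated library 3 and 0 without treated library 1 or 2, and the list's median difference from the vehicle mean was 3.41 in treated libraries 1 and 2 and 0.46 in treated library 3. Without treated library 3, 17 of 22 convoluted and 13 of 15 straight tubule markers rose. Without treated library 1 these were 0 and 1, without treated library 2 again 0 and 1, and with the mitochondrial share as a covariate 0 and 1.

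Enzymes that oxidise and conjugate foreign and endogenous compounds made up a further group. Of 19 listed genes 17 were measured, 4 rose and 0 fell (median 2.15). Nat8f1 (ENSMUSG00000057103; mm10 chromosome 6, 85910154 to 85915687), a paralog of the cysteine conjugate acetyltransferase Nat8, had 12.5, 19.1 and 15.0 FPKM with vehicle and 161, 286 and 85.5 FPKM with 4-PBA. Its log2 difference was 3.29 ± 0.41 (SE; limma adjusted p = 0.00661), and it passed with each of the 9 libraries left out in turn. Nat8 (ENSMUSG00000030004; mm10 chromosome 6, 85830388 to 85832082), which completes mercapturic acids for excretion, had 4.47, 12.9 and 9.19 FPKM and 98.2, 138 and 31.8 FPKM, a log2 difference of 3.06. Reads could be split between these paralogs, and likewise between Cyp2d9 (ENSMUSG00000068086; mm10 chromosome 15, 82433437 to 82456845), a steroid hydroxylase of male mice, and its neighbours. Cyp2d9 had 0, 6.41 and 2.61 FPKM with vehicle and 40.3, 74.6 and 14.1 FPKM with 4-PBA, a log2 difference of 3.60. The ethanol-oxidising Cyp2e1 had 36.2, 25.6 and 55.1 FPKM and 319, 491 and 86.0 FPKM, and Cyp4b1 had 9.87, 36.2 and 35.0 FPKM and 541, 525 and 37.1 FPKM, and neither passed. In both genes treated library 3 lay below libraries 1 and 2, and in Cyp4b1 it was close to the highest vehicle library. Without treated library 3, 9 of the 17 rose, and without treated library 1, without treated library 2 or with the mitochondrial covariate 1 did.

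**Figure D3:**
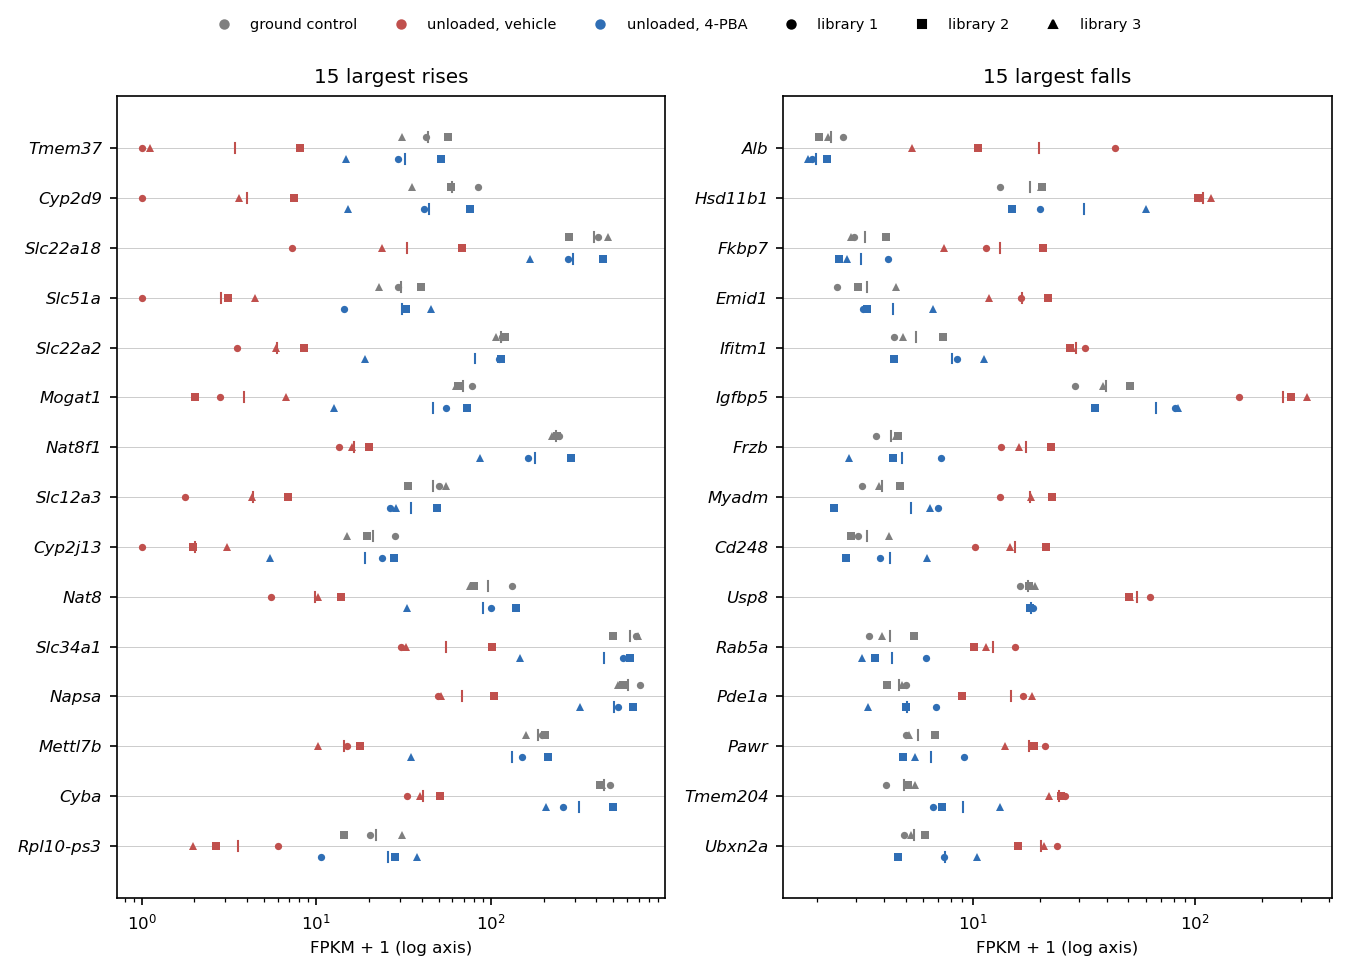
FPKM + 1 (log axis) in each library for the 15 largest rises and the 15 largest falls among protein-coding genes with at least 10 FPKM in the higher group (grey, ground control; red, vehicle; blue, 4-PBA; symbol, library number; tick, group mean + 1). Red and blue symbols do not overlap in any of the 30 genes, and treated library 3 (blue triangle) is the lowest of the treated libraries in 12 of the 15 rises.

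Of 21 listed genes of fatty acid oxidation and PPAR alpha targets 20 were measured, 2 rose and 0 fell, with a median of 0.35. With any single library left out other than vehicle library 1 (1 rose) or treated library 3 (5 rose) 0 rose, and 1 fell without treated library 1. With the mitochondrial covariate 0 passed. The 2 were Cpt2, the inner-membrane carnitine palmitoyltransferase, with 25.0, 17.9 and 17.5 FPKM against 46.4, 61.2 and 44.4 FPKM, and the fatty acid hydroxylase Cyp4a31, with 2.74, 8.20 and 6.87 FPKM against 62.1, 66.4 and 14.6 FPKM. In Cpt2 the 3 treated libraries lay close together and above each vehicle library. Ppara itself had 3.41, 2.51 and 3.57 FPKM with vehicle and 0.783, 1.19 and 0.209 FPKM with 4-PBA, a log2 difference of -1.30 that did not pass (limma adjusted p = 0.0553). Mogat1 (ENSMUSG00000012187; mm10 chromosome 1, 78510991 to 78538173), which joins fatty acids to monoacylglycerol, had 1.83, 1.03 and 5.68 FPKM with vehicle and 54.0, 71.4 and 11.6 FPKM with 4-PBA, a log2 difference of 3.45 (limma adjusted p = 0.0262). Dgat2, the last step of triglyceride synthesis, had a log2 difference of 2.25. Lpl, the lipase that frees fatty acids from lipoproteins, had 10.8, 14.2 and 18.3 FPKM and 96.6, 119 and 33.3 FPKM, and Slc27a2, a very long chain acyl-CoA synthetase of the tubule, had 37.5, 80.6 and 45.6 FPKM and 539, 496 and 128 FPKM. Dgat2, Lpl and Slc27a2 are in no list of lipid genes and were named after their values were seen.

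Other rises at high level were in Cyba, Mettl7b, Spink1, Pth1r and Cdh16. Cyba (ENSMUSG00000006519; mm10 chromosome 8, 122424776 to 122432930), the membrane subunit shared by NADPH oxidases, had 32.1, 49.8 and 38.0 FPKM with vehicle and 257, 495 and 204 FPKM with 4-PBA, a difference of 2.88 ± 0.37 (SE) on the log2 scale with a limma adjusted p of 0.00717. The membrane methyltransferase gene Mettl7b had 14.0, 16.7 and 9.23 FPKM and 149.6, 210.0 and 33.6 FPKM. Spink1, a secreted trypsin inhibitor and the most abundant protein-coding gene to rise, had 153, 220.0 and 134 FPKM and 566, 1378 and 470.1 FPKM. The parathyroid hormone receptor Pth1r had a log2 difference of 1.62, and the kidney cadherin Cdh16 one of 1.95. Tmem37 (ENSMUSG00000050777; mm10 chromosome 1, 120067377 to 120074074), related to calcium channel gamma subunits, had the largest difference of the protein-coding genes chosen by the level rule, 3.76, with 0, 7.11 and 0.112 FPKM with vehicle and 28.2, 50.9 and 13.7 FPKM with 4-PBA. Rpl10-ps3, which is named as a pseudogene but classed as protein-coding in the table, had a log2 difference of 2.83 and can share reads with Rpl10. Agt, the precursor of angiotensin, was the 1 of 8 measured genes of the renin-angiotensin system to rise, with 9.74, 2.89 and 4.52 FPKM against 26.1, 45.1 and 32.4 FPKM. Without treated library 2 it was 0 of the 8, and without treated library 3 there were 3 that rose and 1 that fell. Ace had 2.57, 3.04 and 2.84 FPKM and 18.4, 12.8 and 2.64 FPKM and did not pass, treated library 3 being within the vehicle range. Renin, Ren1, which starts the cascade, had 29.4, 39.2 and 25.2 FPKM and 30.8, 31.3 and 24.5 FPKM, with overlapping groups (log2 difference -0.10; limma adjusted p = 0.905). The tubular and hepatic transcription factor gene Hnf4a had 34.9, 60.8 and 54.9 FPKM and 54.0, 58.7 and 20.0 FPKM, with treated library 3 the lowest of the 6 (log2 difference -0.28; limma adjusted p = 0.743).

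In the distal nephron few markers passed. Slc12a3 (ENSMUSG00000031766; mm10 chromosome 8, 94329201 to 94366214), the thiazide-sensitive sodium chloride cotransporter, had 0.768, 5.89 and 3.30 FPKM with vehicle and 25.5, 47.8 and 27.4 FPKM with 4-PBA, a difference of 3.15 ± 0.48 (SE) on the log2 scale with a limma adjusted p of 0.0126. It was the 1 of 12 distal convoluted tubule markers to rise (median 0.45), with 0 without treated library 2 and 4 without treated library 3. Of 13 intercalated cell markers 3 rose and 0 fell (median 1.03), or 1 without treated library 1 or 2, 2 without vehicle library 1 or any ground control, 1 with the mitochondrial covariate and 0 with the 6 unloaded libraries only. The apical ammonia channel Rhcg had 5.48, 5.47 and 2.58 FPKM and 27.6, 38.2 and 28.0 FPKM (log2 difference 2.59 ± 0.34, SE; limma adjusted p = 0.00804), and the basolateral ammonia channel Rhbg had 0, 0 and 1.37 FPKM and 3.58, 7.86 and 3.15 FPKM. The anion exchanger pendrin, Slc26a4, had 2.53, 2.69 and 2.70 FPKM and 12.3, 17.8 and 8.98 FPKM. In Slc12a3 and Rhcg treated library 3 was close to treated library 1. Of 14 thick ascending limb markers 0 passed (2 at an unadjusted limma p under 0.05; 1 by voom), or 3 rose without treated library 3. Umod, uromodulin, had 81.8, 62.7 and 104 FPKM with vehicle and 500.3, 227 and 32.5 FPKM with 4-PBA, and the cotransporter Slc12a1 had 24.1, 37.0 and 48.4 FPKM and 141, 90.0 and 31.6 FPKM. Of 12 measured connecting tubule and principal cell markers 0 passed (4 at an unadjusted limma p under 0.05; 0 by voom), or 2 rose without treated library 3, among them Hsd11b2, which inactivates cortisol, with 2.82, 7.86 and 14.7 FPKM and 79.1, 59.3 and 18.7 FPKM (limma adjusted p = 0.0596). Of 9 measured podocyte markers, of 15 listed, 0 passed (2 at an unadjusted limma p under 0.05; 0 by voom).

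The falls were in genes of lower level than the rises. Hsd11b1 (ENSMUSG00000016194; mm10 chromosome 1, 193221634 to 193264075), which regenerates active glucocorticoid, had 103, 102 and 117 FPKM with vehicle and 19.0, 14.1 and 58.9 FPKM with 4-PBA, a difference of -2.05 ± 0.47 (SE) on the log2 scale with a limma adjusted p of 0.0477. Igfbp5 (ENSMUSG00000026185; mm10 chromosome 1, 72857932 to 72874884), a secreted binding protein for insulin-like growth factors, had 157, 267 and 317 FPKM and 80.0, 34.6 and 82.3 FPKM, a log2 difference of -1.94. Igfbp5 fell to a like level in treated libraries 1 and 3, whereas Hsd11b1 in treated library 3 stayed about midway between the other treated libraries and vehicle. Ifitm1 (ENSMUSG00000025491; mm10 chromosome 7, 140967221 to 140969825), an interferon-inducible membrane protein, had 30.9, 26.4 and 26.9 FPKM and 7.47, 3.43 and 10.3 FPKM. Usp8 (ENSMUSG00000027363; mm10 chromosome 2, 126707328 to 126759297), a deubiquitinase of endosomes, had 61.7, 49.3 and 50.1 FPKM and 17.7, 17.2 and 17.1 FPKM, a difference of -1.57 ± 0.22 (SE) on the log2 scale with a limma adjusted p of 0.00959. The 3 treated values of Usp8 were nearly the same. Rab5a, the small GTPase of early endosomes, had a log2 difference of -1.55, and Ubxn2a, a cofactor of the segregase p97, one of -1.49. Pawr, a regulator of cell death, had -1.50, the calcium-dependent phosphodiesterase Pde1a -1.54, and Fkbp7, a prolyl isomerase of the endoplasmic reticulum, -1.99. Bok, of the Bcl2 family, was the 1 of 14 measured genes of that family and the caspases to pass, with 50.3, 28.6 and 27.1 FPKM against 13.8, 7.75 and 14.5 FPKM. There were 2 that fell without treated library 3, and with any other library left out 0.

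In the fixed lists of stromal and vascular cells few or no genes passed. Of 10 measured fibroblast markers 0 passed (median -1.31), with 3 at an unadjusted limma p under 0.05 and 1 by voom, all lower. There were 4 that fell without treated library 3. Of 8 measured smooth muscle and pericyte markers 0 passed (median -0.11), with 3 at an unadjusted limma p under 0.05 and 0 by voom, and 2 fell without treated library 3. Among the 15 largest falls, Cd248 (endosialin, of pericytes and fibroblasts) had 9.29, 20.3 and 13.7 FPKM with vehicle and 2.85, 1.70 and 5.26 FPKM with 4-PBA, a log2 difference of -1.88. Frzb, a secreted inhibitor of Wnt signalling, had -1.93, Emid1, a secreted protein with an EMI domain, -1.96, Myadm -1.89 and Tmem204 -1.49. Erg, a transcription factor of endothelium, had 9.57, 7.32 and 7.49 FPKM and 1.92, 0.792 and 2.64 FPKM, and was the 1 of 15 endothelial markers to pass (median -0.07), or 0 without treated library 1 or 2. Timp1, an inhibitor of matrix proteases, had 10.8, 5.07 and 2.99 FPKM and 0.992, 1.33 and 0 FPKM, and was the 1 of 15 measured matrix proteases, inhibitors and crosslinking enzymes to pass. Of the 9 libraries left out in turn its call held only without vehicle library 3, and 6 others of the 15 fell without treated library 3.

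The matrix genes themselves did not pass, and treated library 3 differed from the other treated libraries in them. Of 30 listed interstitial matrix genes 27 were measured and 0 passed in either direction, with a median log2 difference of -1.73 and 24 below 0. At an unadjusted limma p under 0.05 there were 18, all lower, and voom on the recovered reads called 5 lower. Ecm1, a glycoprotein of the matrix, had 293, 845 and 648 FPKM with vehicle and 46.9, 24.2 and 391 FPKM with 4-PBA. Biglycan, Bgn, had 158, 342 and 227 FPKM and 30.3, 17.4 and 191 FPKM, and the elastic fibre protein fibulin-5, Fbln5, had 155, 269.8 and 222 FPKM and 15.8, 9.26 and 136 FPKM. In each, treated libraries 1 and 2 were below every vehicle library by a wide margin. Treated library 3 lay within the vehicle range in Ecm1 and Bgn and a little below it in Fbln5. Decorin, Dcn, had 30.5, 37.5 and 27.4 FPKM and 14.7, 2.43 and 45.8 FPKM, with treated library 3 the highest of the 6. Over the list the median difference from the vehicle mean was -2.50 in treated libraries 1 and 2 and -0.10 in treated library 3. Without treated library 3, 18 of the 27 fell, and without treated library 1 or 2 0 did. Of 14 measured basement membrane genes 0 passed, or 8 fell without treated library 3, and at an unadjusted limma p under 0.05 there were 8 lower and 2 higher (voom, 1 lower). The type IV collagen gene Col4a1 had 80.9, 288 and 281 FPKM and 20.1, 12.6 and 131 FPKM. Of 10 measured complement genes 0 passed (6 at an unadjusted limma p under 0.05; 2 by voom, both lower), or 4 fell without treated library 3.

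**Figure D4:**
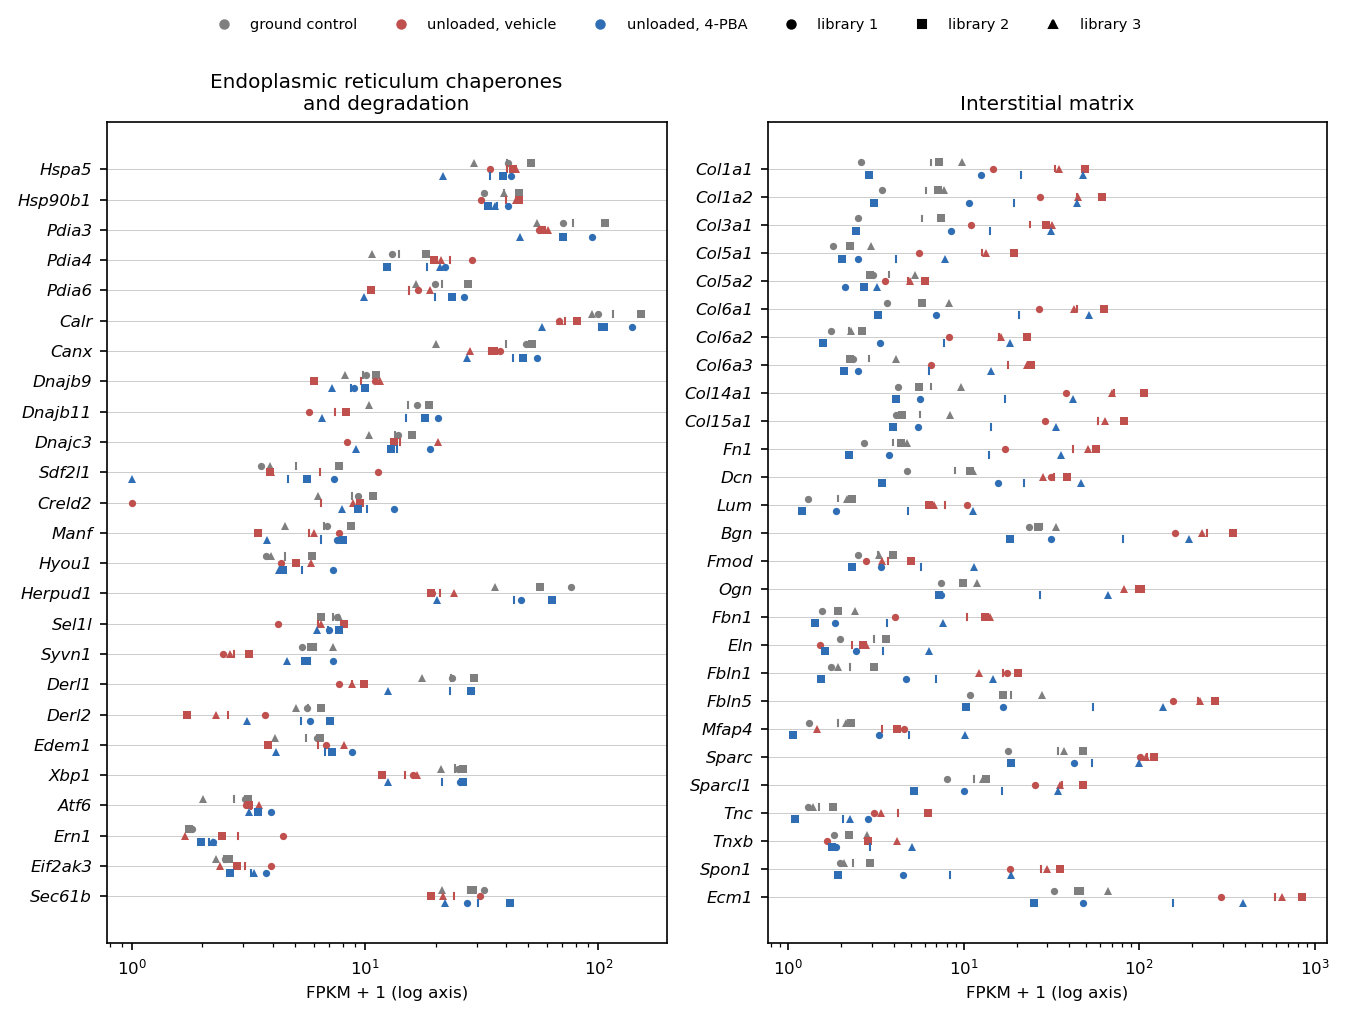
FPKM + 1 (log axis) in each library for 25 chaperone and degradation genes of the endoplasmic reticulum and 27 interstitial matrix genes (grey, ground control; red, vehicle; blue, 4-PBA; symbol, library number; tick, group mean + 1). In most matrix genes the blue triangle, treated library 3, lies near the red symbols while treated libraries 1 and 2 lie to their left. None of the 52 genes passed the threshold.

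Genes tied to the known actions of 4-PBA mostly did not pass the test. Of 26 listed chaperone and degradation genes of the endoplasmic reticulum 25 were measured and 0 passed (3 at an unadjusted limma p under 0.05, all higher; 0 by voom), with a median of 0.20. Hspa5, the main chaperone BiP, had 33.2, 41.9 and 43.4 FPKM with vehicle and 41.1, 38.0 and 20.5 FPKM with 4-PBA, a difference of -0.30 ± 0.33 (SE) on the log2 scale with a limma adjusted p of 0.652. The calcium-binding chaperone Calr had 66.4, 79.5 and 67.2 FPKM and 138, 104 and 56.3 FPKM, and the transcription factor Xbp1 had 15.0, 10.8 and 15.7 FPKM and 24.4, 25.2 and 11.6 FPKM. In these genes treated library 3 was the lowest or next to lowest of the 6. The smallest p in the list belonged to Syvn1, the ubiquitin ligase that marks misfolded proteins, with 1.44, 2.15 and 1.64 FPKM and 6.27, 4.52 and 3.63 FPKM (log2 difference 1.07; limma adjusted p = 0.0580). Derl1, part of the channel through which such proteins leave, had 6.69, 8.88 and 7.75 FPKM and 27.3, 27.5 and 11.5 FPKM (log2 difference 1.31; limma adjusted p = 0.0849). Herpud1, a stress-induced partner of Syvn1, had 18.3, 18.0 and 23.1 FPKM and 45.6, 62.0 and 19.3 FPKM. All 3 treated libraries exceeded all 3 vehicle libraries in Syvn1 and Derl1, which are the 2 of 25 with groups that did not overlap, against 20.8% of all genes. Of the 25, 5 rose and 0 fell without treated library 3, a setting in which 663 of all 11858 genes rose and 680 fell. At an unadjusted limma p under 0.05 there were 2466 of the 11858 in the main fit.

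Of 21 listed genes of the integrated stress response 17 were measured, 1 rose and 1 fell. Cebpb, a transcription factor of stress and acute-phase responses, had 5.12, 7.05 and 5.10 FPKM with vehicle and 12.1, 12.5 and 18.0 FPKM with 4-PBA, a log2 difference of 1.16 (limma adjusted p = 0.0437). Its call held only without vehicle library 2 or treated library 3 among the 9 libraries left out in turn. The metabolic hormone gene Fgf21 had 2.64, 6.76 and 3.88 FPKM with vehicle, from 15, 20 and 25 reads, and 0 reads in each treated library, so its fitted value is no bound. Of 11 listed histone deacetylases 8 were measured and 0 passed (1 at an unadjusted limma p under 0.05; 1 by voom), with differences from -0.24 to 1.38. The highest was that of Hdac6, the cytosolic deacetylase of tubulin, with 1.15, 6.13 and 3.42 FPKM and 8.74, 9.89 and 10.2 FPKM (limma adjusted p = 0.109). Of 18 listed genes that could carry or metabolise 4-PBA 16 were measured and 0 passed (4 at an unadjusted limma p under 0.05; 1 by voom), or 4 rose without treated library 3. The acyl-CoA synthetase Acsm2 had 15.7, 37.2 and 41.9 FPKM and 243, 189 and 32.4 FPKM, and the glycine acyltransferase Glyat had 25.3, 55.5 and 30.8 FPKM and 53.3, 74.2 and 33.9 FPKM. Of 13 heat shock genes 0 passed (1 at an unadjusted limma p under 0.05; 0 by voom), among them Hspa8 with 139, 165 and 124 FPKM and 221, 360.0 and 217 FPKM.

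In the 13 protein-coding genes of the mitochondrial genome the treated libraries were farther apart than in any other list with 5 or more measured genes. They had a median log2 difference of -2.58 and 0 passed, but 11 fell without treated library 3, 12 with library weights and 1 without vehicle library 1 (7 at an unadjusted limma p under 0.05, all lower; 0 by voom). The median difference from the vehicle mean was -3.67 in treated libraries 1 and 2 and -0.38 in treated library 3. mt-Nd3 had 1755, 5419 and 3331 FPKM with vehicle and 110.1, 275 and 1463 FPKM with 4-PBA, and was 1 of 2 genes of the 13 with groups that did not overlap, against 20.8% of all genes. mt-Co1 had 166799, 319773 and 146369 FPKM and 14561, 11692 and 178195 FPKM. Of 34 nuclear genes of oxidative phosphorylation 0 passed (8 at an unadjusted limma p under 0.05, all higher; 2 by voom), or 4 rose without treated library 3. The median was 0.43, with Ndufa2, of complex I, at 110.4, 137 and 165 FPKM and 239.7, 472 and 380.5 FPKM (limma adjusted p = 0.0600). Of 20 antioxidant enzymes 0 passed (5 at an unadjusted limma p under 0.05; 1 by voom), or 7 rose without treated library 3, the most abundant being the plasma glutathione peroxidase Gpx3 with 2338, 5803 and 2409 FPKM and 8059, 15243 and 17309.7 FPKM. Gpx3 was highest in treated library 3. The inositol-degrading enzyme Miox, also of the proximal tubule, had 196, 248 and 264 FPKM and 821, 1005 and 322 FPKM. Of 35 cytosolic ribosomal protein genes 0 passed (1 at an unadjusted limma p under 0.05, 0 by voom; median 0.10). Of 17 measured genes of cholesterol synthesis and uptake 0 passed (3 at an unadjusted limma p under 0.05; 1 by voom), or 3 rose and 1 fell without treated library 3.

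Several markers of immune and other cells were highest in treated library 3. Of 12 measured macrophage markers 0 passed (3 at an unadjusted limma p under 0.05; 0 by voom), the smallest p being that of the adaptor Tyrobp with 0, 0 and 4.42 FPKM and 4.44, 8.43 and 20.2 FPKM. The immunoglobulin light chain gene Igkc had 19.8, 1.21 and 0 FPKM and 5.34, 12.0 and 223 FPKM, the adipocyte protease Cfd 0, 1.74 and 3.20 FPKM and 8.04, 0.804 and 304 FPKM, and the smooth muscle actin Acta2 18.6, 18.8 and 11.9 FPKM and 36.7, 21.3 and 155 FPKM. In each of these 3 genes treated library 3 was the highest of the 6, and for Cfd ground control 2 was also high, at 273 FPKM. The lymphocyte gene Nkg7 and the basal urothelial keratin Krt5 were listed at 0 in each vehicle library and had 1.58, 1.19 and 3.16 FPKM and 2.24, 1.41 and 3.87 FPKM with 4-PBA. Both passed, in vehicle libraries with the fewer reads outside the mitochondrial genome, and their fitted differences are no bound. Of 8 measured tubular injury genes 0 passed (4 at an unadjusted limma p under 0.05; 0 by voom), or 2 rose and 1 fell without treated library 3, with osteopontin, Spp1, at 163, 127 and 67.0 FPKM and 296, 343 and 196 FPKM. The apolipoprotein gene Apoc3 rose (0, 1.27 and 0 FPKM against 10.7, 12.9 and 3.64 FPKM), in the direction opposite to Alb, with which it shares the hepatocyte list.

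Calls in genes of other classes included the largest fitted values of all, on very few reads. Ighd3-1 (chromosome 12, 113525313 to 113525329), an immunoglobulin diversity segment of 17 bases, had 27, 17 and 29 reads with vehicle and 0 in each treated library. FPKM divides by length, and those reads gave 266, 321 and 251 FPKM. The small nuclear RNA gene Gm23680 had 112, 22 and 29 reads against 5, 0 and 0. The reverse held for Gm24694, classed as a microRNA gene and 110 bases long, with 0 reads in each vehicle library and 54, 114 and 39 reads with 4-PBA. The pseudogene Rps12-ps4, which can share reads with Rps12, had 0.422, 1.62 and 2.97 FPKM and 12.7, 40.1 and 57.8 FPKM, and the pseudogene Gm6055 had 18.2, 36.5 and 30.4 FPKM and 3.81, 1.61 and 10.2 FPKM. Krtdap, a keratinocyte protein gene named here after its values were seen, had 23, 32 and 37 reads with vehicle and 0 with 4-PBA. Fitted differences of genes at 0 in every library of a group are no bound and are not given. The 55 processed pseudogenes that fell stand beside the pseudogene shares of 3.73% to 7.54% with vehicle and 0.955%, 1.18% and 4.83% with 4-PBA, whose part in the falls was not tested.

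**Figure D5:**
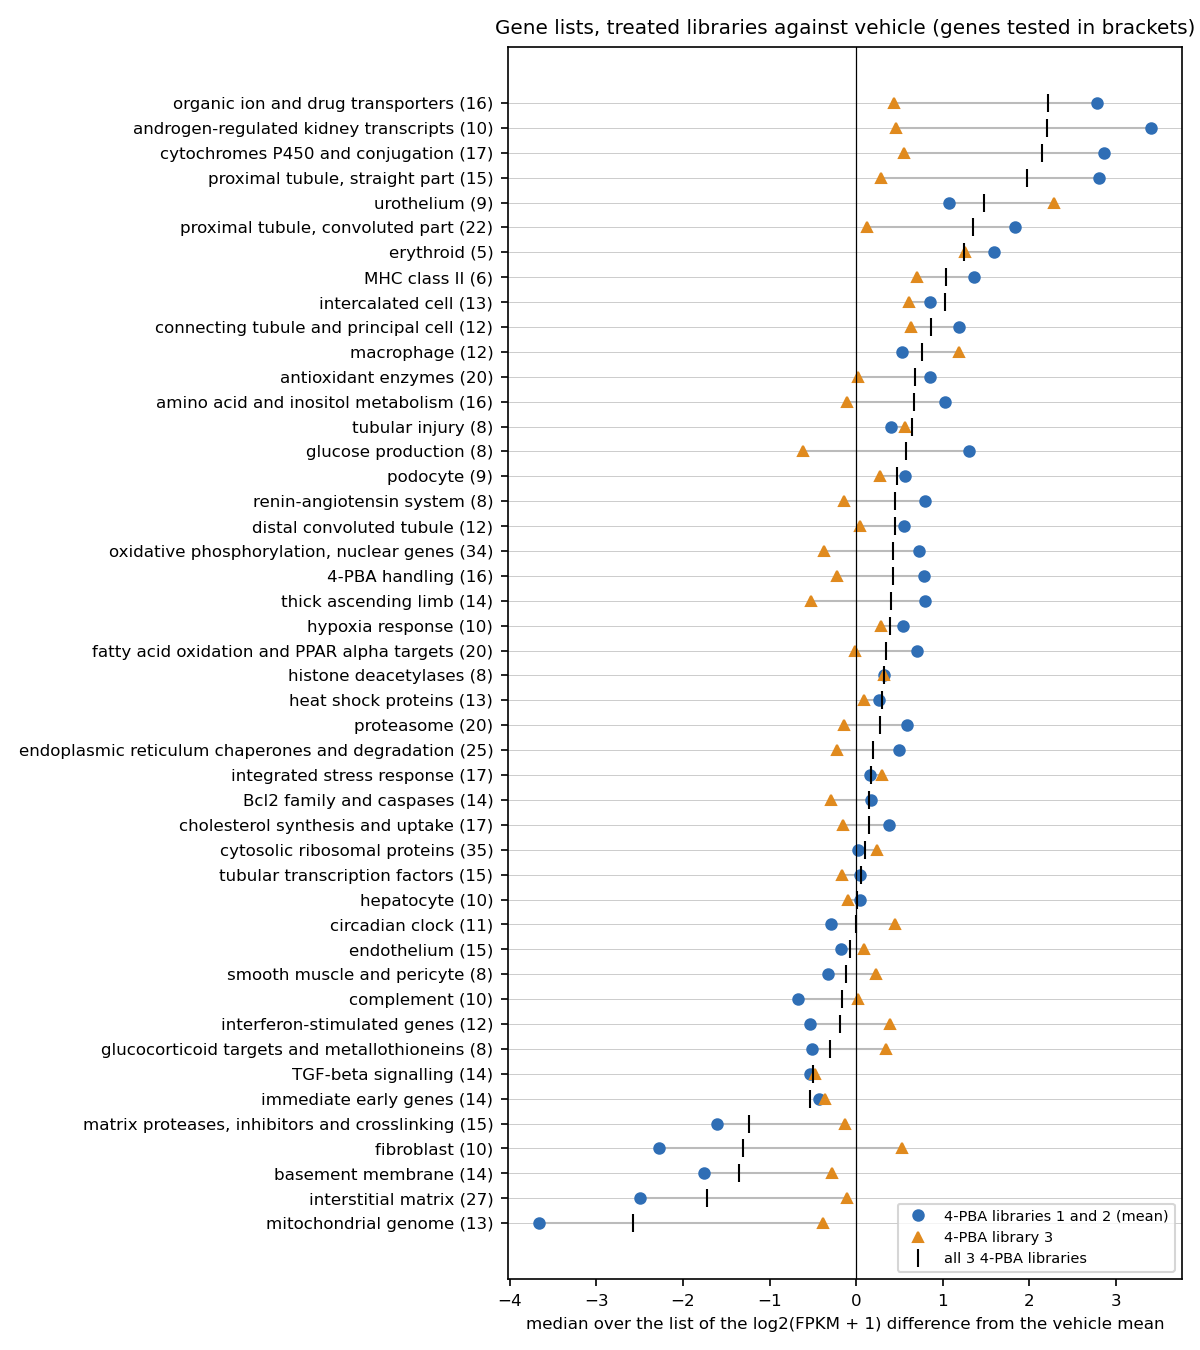
Median over each gene list of the log2(FPKM + 1) difference from the vehicle mean (number of measured genes in brackets), for treated libraries 1 and 2 averaged (circle), treated library 3 (triangle) and all 3 (tick). Among these lists of 5 or more measured genes, circle and triangle are farthest apart for the mitochondrial genome (-3.67 and -0.38), androgen-regulated transcripts (3.41 and 0.46) and fibroblast markers (-2.27 and 0.53), and close for histone deacetylases (0.33 and 0.32).

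A call depends on the spread within groups, so how near treated library 3 lay to libraries 1 and 2 in called genes is partly set by the selection. Over the 166 higher genes the median difference of treated library 3 from the vehicle mean was 1.54, against 1.98 in libraries 1 and 2. Library 3 was the treated library nearest to vehicle in 96 of them. Over the 219 lower genes the medians were close, at -1.93 and -1.98, and library 3 was the nearest to vehicle in 57. Higher protein-coding genes had a median GC content of 54.2% and a median length of 2574 bases, and lower ones 50.2% and 2890 bases, against 50.1% and 4110 bases in all 10442 protein-coding genes tested. Ground controls, measured in the same way, had means of 622 ± 109 FPKM for Slc34a1 and 112 ± 6.60 FPKM for Slc22a2 (SD, n = 3). Those of Hsd11b1 and Igfbp5 were 17.0 ± 4.11 and 38.5 ± 11.2 FPKM. The mitochondrial genome took 18.9%, 14.8% and 49.7% of the reads of ground controls 1, 2 and 3. In this share controls 1 and 2 were thus near treated libraries 1 and 2. The control means of these genes were not tested against either unloaded group.

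Near the entry filter, 357 genes had a deciding value (the FPKM ranked 3 of the 6 libraries) between 1.0 and 1.1 and were members, and 375 had it between 0.9 and 1.0 and were not. Of the members, 7294 had at least 1 FPKM in all 6 libraries. In 271 members every vehicle library and no treated library reached 1 FPKM, and in 96 the reverse held.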

How the data were processed

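Kidney RNA of 9 libraries was sequenced. The tools named are CASAVA, HISAT2 and cutadapt, and the build mm10, per the submitters' processing notes. Their versions, and what counted the reads, are not given in the sources used. The deposited table holds values that behave as FPKM: multiplied by gene length and by 1 factor for each library, 100% came out as whole reads within a tolerance of 0.01. That factor gave totals of 7595631 to 14854306 reads in the 6 unloaded libraries. Gene coordinates are those of the deposited table, and for 98.3% of its genes they were the same as in GENCODE mouse release 21.

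Genes with at least 1 FPKM in at least 3 of the 6 unloaded libraries were tested on log2(FPKM + 1) with limma 3.58.1 in R 4.3.3, with all 9 libraries sharing one estimate of spread and Benjamini-Hochberg adjustment over all 11858 genes. Tables and figures were made with Python 3.11.15 and matplotlib 3.10.9. The code was tested on simulated data in which 200 of 11858 genes were changed. It called 0% of the 100 genes changed by a log2 of 1 and 25% of the 100 changed by 2, with 2 false calls. Lists in which 0 passed therefore do not show that their genes were unchanged. Named genes were the 15 largest rises and 15 largest falls among protein-coding genes of at least 10 FPKM in the higher group. Each gene list added up to 4 called members of smallest p or, where none was called, up to 2 of highest FPKM. Members of the lists on 4-PBA, deacetylases and the endoplasmic reticulum were added, as were the 5 most abundant called genes of other classes. Alternatives covered scaling, filter, pseudocount, voom, covariates, weights and single libraries left out.

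The members and lists were chosen with earlier results of these data known. Some choices came after values and their behaviour under the alternatives were seen: uncalled list members are named only in part, and some of them (Syvn1, Tyrobp, Ndufa2, Ppara and others) for their p. Slc27a2, Dgat2, Lpl, Pth1r, Spink1, Cdh16 and Krtdap were named for their values. In lists that held a called gene, uncalled members such as Slc22a6, Slc22a8, Kap, Cyp2e1, Cyp4b1, Ace and Ren1 were named outside the rule. Promoters shown depart from the planned choice, as the windows of higher-ranked genes overlapped annotated exons. A few items are not reported here.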

Additional observations from a re-analysis of the deposited data

How the results depend on the processing

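The count of 385 genes past the limma threshold depended on the processing. It was 18 with the 6 unloaded libraries only, 835 scaled to total reads, 52 with no filter, 155 with a filter of 5 FPKM, 159 with a pseudocount of 0.1, 115 with the mitochondrial share as a covariate, 2053 with library weights and 210 with protein-coding genes only. Leaving out 1 library at a time gave 47 to 1343. With a replicate block it was 159. Same-numbered libraries had correlations of deviations from -0.22 to 0.31. With 3 libraries a group these cannot show whether the replicate numbers mark a pairing. Of alternatives added after the data were seen, 1089 passed without treated library 3 and ground control 3, and 11 with the ending of the column name as a term. Scaling to reads outside the mitochondrial genome gave 337, medians of ratios 389, voom on recovered reads 431 and reads thinned to equal depth 294. Of 63 called genes named here, most by rule and some outside it, none changed sign under any alternative run. Of these, 62 passed without treated library 3, 16 without treated library 1 and 7 without treated library 2. With the mitochondrial covariate 10 passed, and with the 6 libraries only 3 did. Among uncalled genes, Hspa5 changed sign to 0.66 scaled to total reads and to 0.0088 without treated library 3, alone or with ground control 3; without single libraries it lay between -0.48 and 0.0088. Hnf4a changed sign to 0.69 scaled to total reads, 0.0021 with library weights and 0.20 without treated library 3, alone or with ground control 3 (range without single libraries -0.55 to 0.20). Ren1 changed sign to 0.86 scaled to total reads, 0.11 with library weights, 0.074 without vehicle library 2 and 0.014 without treated library 3, alone or with ground control 3 (range -0.24 to 0.074). With the mitochondrial covariate the sign changed for Calr (-0.25), Xbp1 (-0.20), Herpud1 (-0.087), Umod (-1.26), Dcn (0.33) and mt-Co1 (0.18). The causes were not tested. The 1568888 to 3037972 reads outside the mitochondrial genome in the vehicle libraries and treated library 3 limit what could be seen in low genes.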

Other observations

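Further lists also held few or no genes past the limma threshold. All 6 measured MHC class II genes, which present antigen to T cells, were above 0 with a median log2 difference of 1.04. Of these 0 passed, 4 had an unadjusted limma p under 0.05 and 0 were called by voom, while 2 rose without treated library 3. In 3 of the 6 the treated and vehicle libraries did not overlap, against 20.8% of all genes. Of 14 measured immediate early genes, transcription factors induced within minutes of a stimulus, 12 were below 0 (median -0.53). Of these 0 passed, 5 had an unadjusted limma p under 0.05 and 0 were called by voom. Glucose production genes (8 measured) had medians of 1.31 in treated libraries 1 and 2 and -0.62 in treated library 3. Of the 8 genes 0 passed, with 3 at an unadjusted limma p under 0.05 and 0 by voom, but 4 rose without treated library 3 and 4 with library weights. TGF-beta signalling genes had a median of -0.50, with 13 of 14 below 0. Of the 14 genes 0 passed, with 3 at an unadjusted limma p under 0.05 and 1 by voom, but 1 rose and 4 fell without treated library 3.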
